A study of Mus musculus with 4 samples.

Results

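The genes described here are 43 regulators and enzymes of the cell division cycle and of DNA replication, taken by name from a list and matched by symbol to the 35522 genes of the deposited tables. All 43 were found. They comprise 10 genes of G1 and of entry into S phase, 13 genes of S phase, 16 genes of G2 and mitosis, and 4 brakes on the cycle. Their reads came from liver tissue of mice of strain C57BL/6, taken 24 hours (1 day) after diethylnitrosamine (DEN), a liver carcinogen that hepatocytes convert into an agent that alkylates DNA. Of the 4 libraries, 2 are labelled Control and 2 are labelled Dph1 KO, and all 4 come from animals given DEN. Dph1 encodes part of the enzyme complex for the first step of making diphthamide, a modified histidine in translation elongation factor eEF2. The labels do not say which cells carried the deletion, which allele or Cre line was used, the age or sex of the animals, or whether each library came from its own animal. P-values therefore measure only the spread between these libraries, which may be technical. Livers without DEN were not analysed here.

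A dividing cell passes through G1, S phase, G2 and mitosis. In G1, cyclins of the D and E types with their kinases inactivate the retinoblastoma protein and so free E2F transcription factors. Replication origins are licensed when CDC6 and CDT1 load the ring of MCM proteins, and geminin blocks CDT1 once S phase has begun. Cyclin A, cyclin B and CDK1 then drive G2 and mitosis, where CDC25 phosphatases switch CDK1 on and the kinase WEE1 holds it off. Adult hepatocytes are mostly quiescent and return to the cycle after loss of liver tissue or toxic injury. In resting cells a complex of p130, E2F4 and LIN proteins, called DREAM, keeps many of these genes silent.

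The 4 libraries held 19474596 to 21137358 reads in genes, of which the 43 genes took 6078 to 6289 per library, or 0.0291% to 0.0312%. Dph1 itself was lower in both libraries labelled Dph1 KO, with 1292 and 1228 reads in Control against 421 and 689 in Dph1 KO. Of the 8 hepatocyte markers, which include Alb, all were tested and edgeR called none, while DESeq2 called Serpina1a lower (-0.70, adjusted p = 0.0184). Of the 7 neutrophil markers, 2 had enough reads to be tested, and neither was called. Summed CPM (read counts relative to library size) of the 9 lymphocyte markers ranged from 8.70 to 9.95 over the 4 libraries, but its members did not share a direction: the B cell gene Cd79a fell (2.77 and 3.17 CPM in Control against 1.14 and 1.23 CPM in Dph1 KO, edgeR log2 fold change -1.32, adjusted p = 0.0338), and the pan-leukocyte gene Ptprc was not called and stood higher without overlap (0.59, adjusted p = 0.139). The sum of the 8 macrophage markers was 289.7 and 304 in Control, and in Dph1 KO it was 181 in replicate 1, the lowest of all, and 303 in replicate 2. Of these, edgeR called Cd68 lower (114 and 106 CPM in Control against 39.9 and 56.9 CPM in Dph1 KO, log2 fold change -1.18, adjusted p = 0.0159) and no other. Of the 7 stellate cell markers, Rgs5 rose and Des and Col1a1 fell, of the 4 erythroid markers tested Klf1 fell (-1.17, adjusted p = 0.0312), and no endothelial or bile duct marker was called. The part of these cell types in the results below was not tested. In liver tissue, fewer cells of a type and less RNA per cell cannot be told apart.

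Levels differed widely between the stages of the cycle. By deposited TPM (transcript abundance relative to gene length and library size), the G1 genes summed to 129 and 128 in Control against 113 and 112 in Dph1 KO. The S phase genes summed to 75.6 and 68.5 TPM in Control against 87.4 and 75.9 TPM in Dph1 KO. All 16 genes of G2 and mitosis together reached 5.60 and 4.71 TPM in Control against 6.72 and 6.21 TPM in Dph1 KO. Mitotic transcripts were thus scarce in both genotypes. The S phase sum took the other direction in TMM-scaled CPM, the scale of the tests below: it was 113 and 112 in Control and lower, 93.5 and 99.2, in Dph1 KO. Before any scaling, these genes had 2072 and 2019 reads in Control against 2207 and 2170 in Dph1 KO. These raw sums also carry depth, as the Dph1 KO libraries held more gene reads (20410978 and 21137358) than Control (19474596 and 20355790). The TMM factors, which the deposited TPM do not carry, were 0.945 and 0.884 in Control against 1.16 and 1.04 in Dph1 KO. A larger factor lowers the scaled CPM. The lower S phase sum in Dph1 KO thus belongs to the TMM scale, and its cause was not tested. The brakes summed to 14.2 and 13.7 TPM in Control against 22.6 and 13.8 TPM in Dph1 KO, where replicate 1 was high. The most abundant gene was Cdk4, the kinase partner of the D cyclins, at a mean of 50.3 TPM. Next came Ccnd3 at 43.0 TPM and Pcna, the sliding clamp of DNA polymerase, at 20.1 TPM. Of the 16 genes of G2 and mitosis, 14 were below 1 TPM and all 16 were below 50 reads in each of the 4 libraries. The scarcest was Bub1, a spindle checkpoint kinase gene with 1 read in Control replicate 2 and 0 in the other libraries.

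**Figure D1:**
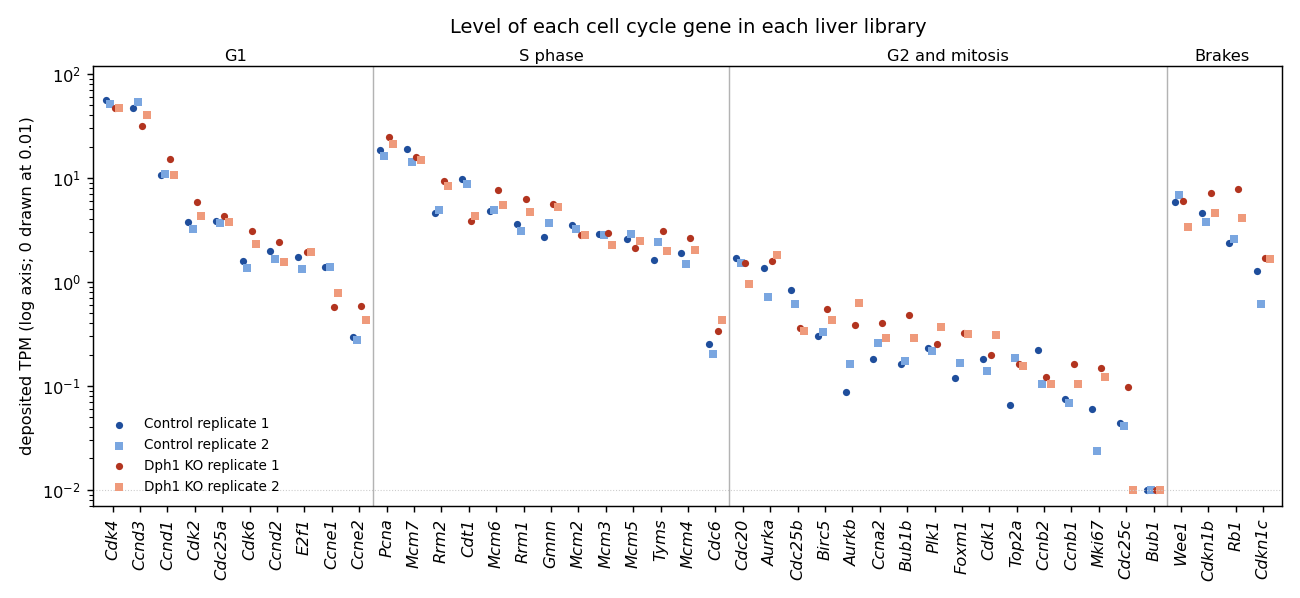
Deposited TPM (log axis) of each of the 43 genes in each of the 4 libraries, grouped by role and ordered by mean level, with 0 drawn at 0.01. Cdk4 and Ccnd3 are the most abundant, with means of 50.3 and 43.0 TPM, while 14 of the 16 genes of G2 and mitosis lie below 1 TPM in every library.

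For the comparison of the genotypes, 37 of the 43 genes had enough reads to be tested: all 10 of G1, all 13 of S phase, all 4 brakes and 10 of the 16 of G2 and mitosis. The 6 left out, Ccnb1, Ccnb2, Cdc25c, Aurkb, Plk1 and Bub1, had at most 15 reads in any library. Log2 fold changes below are Dph1 KO over Control from edgeR's quasi-likelihood test, with p-values adjusted by Benjamini-Hochberg over all 13303 tested genes. A gene is called at an adjusted p under 0.05. Values per library are CPM scaled by TMM, edgeR's correction for library composition.

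Of the 37 genes, 1 rose and 1 fell in Dph1 KO, where 12.3% of all tested genes were called (4.86% higher and 7.47% lower). A further 4, Wee1, Cdc25b, Ccnd3 and Ccne1, had an adjusted p between 0.05 and 0.06 and were all lower. At an unadjusted p under 0.05, 10 of the 37 passed, where 34.2% of all genes did. Of these, 8 were lower and 2 higher, against 17.9% and 16.3% of all tested genes. The median log2 fold change of the 37 was 0.08, against 0.04 over all tested genes. Libraries of the genotypes did not overlap for 24 of the 37, with 11 higher and 13 lower in Dph1 KO, where 67.4% of all tested genes did not overlap (34.9% higher and 32.5% lower). The share of members called was below that of all tested genes, and the results lie in single members.

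The gene that fell was Cdt1 (gene ID 67177, GRCm38 chr8:122568015-122573130, plus strand), which encodes the licensing factor that loads the MCM ring at origins. Cdt1 had 13.8 and 13.4 CPM in Control against 3.90 and 5.44 CPM in Dph1 KO. Both Dph1 KO libraries were far below both Control libraries, and the Control pair was nearly equal. The log2 fold change was -1.54 (SE 0.24, edgeR adjusted p = 0.00577). Every Cdt1 read was uniquely matched, and no other deposited gene region overlaps it. Reads across its exon junctions numbered 70 and 83 in Control and fewer, 29 and 40, in Dph1 KO. Cdt1 kept its direction in all 15 alternative analyses and was called in 14. The exception was limma-trend on log2(TPM + 1), at -1.002 (adjusted p = 0.192), where 3 genes in all were called.

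The promoter windows of 4 members are shown here because they had the lowest p-values of those with a window, and their transcripts were all lower in both Dph1 KO libraries. Windows come from RefSeq (GRCm38.p6), from 250 bases before to 50 bases after the annotated start, and were at hand for 31 of the 43 genes. They were searched on both strands for letters of 3 elements known to time transcription in the cycle. These were the cell cycle homology region or CHR (TTTGAA or TTCGAA), the CCAAT box (CCAAT), and the E2F element (TTTGGCGC, TTTCGCGC, TTTCCCGC or TTTGCCGC). The windows lie at chr8:122567765-122568064 (Cdt1, plus strand), chr2:131186698-131186997 (Cdc25b, plus strand), chr17:47504801-47505100 (Ccnd3, plus strand) and chr7:38107441-38107740 (Ccne1, minus strand). Each is written 5′ to 3′ along its gene, with matched letters in capitals. Cdt1 holds 1 E2F match, from base 33 of the transcript. Cdc25b holds CCAAT on the minus strand, 28 bases before the start, and the CHR letters TTCGAA, a palindrome counted once, from base 8, and these matches do not overlap. The windows of Ccnd3 and Ccne1 hold none of the letters searched.
Cdt1: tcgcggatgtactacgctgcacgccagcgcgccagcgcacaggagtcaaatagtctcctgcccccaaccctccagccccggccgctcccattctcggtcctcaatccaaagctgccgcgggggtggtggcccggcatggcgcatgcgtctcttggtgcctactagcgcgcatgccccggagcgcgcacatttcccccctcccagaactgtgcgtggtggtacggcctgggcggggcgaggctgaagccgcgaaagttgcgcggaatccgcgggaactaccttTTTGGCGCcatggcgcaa
Cdc25b: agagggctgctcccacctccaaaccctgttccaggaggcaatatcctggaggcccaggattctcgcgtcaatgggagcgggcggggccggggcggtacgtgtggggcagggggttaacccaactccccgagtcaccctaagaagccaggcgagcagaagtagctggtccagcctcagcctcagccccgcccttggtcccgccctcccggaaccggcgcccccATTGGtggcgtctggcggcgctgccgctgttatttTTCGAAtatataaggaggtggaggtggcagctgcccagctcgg
Ccnd3: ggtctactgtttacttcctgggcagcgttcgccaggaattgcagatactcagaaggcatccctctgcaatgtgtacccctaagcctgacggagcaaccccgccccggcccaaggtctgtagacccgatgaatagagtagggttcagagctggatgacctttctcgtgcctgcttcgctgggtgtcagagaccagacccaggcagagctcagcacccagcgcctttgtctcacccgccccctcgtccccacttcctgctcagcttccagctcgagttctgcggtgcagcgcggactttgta
Ccne1: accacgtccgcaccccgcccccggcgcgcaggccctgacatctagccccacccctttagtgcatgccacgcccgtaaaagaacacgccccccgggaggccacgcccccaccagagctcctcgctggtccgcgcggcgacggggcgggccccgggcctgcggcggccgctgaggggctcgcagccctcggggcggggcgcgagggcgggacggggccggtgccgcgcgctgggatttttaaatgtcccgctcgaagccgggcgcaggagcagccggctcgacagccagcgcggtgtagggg

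Matches in the 31 windows were counted by stage. For each member the window nearest the start of the deposited gene was taken. Its start lay 426 bases from that for E2f1, 419 for Cdk6 and 262 for Cdc6, so these may not show the promoter in use. The share over all genes took the first window listed for each gene. CHR letters were in 10 of 12 windows of G2 and mitosis genes, 2 of 11 of S phase genes and 0 of 7 of G1 genes, where 19.4% of 27025 genes hold them. E2F letters were in 6 of 11 windows of S phase genes, 2 of 7 of G1 genes and 1 of 12 of G2 and mitosis genes, where 2.32% of all genes hold them. CCAAT was in 11 of 12 windows of G2 and mitosis genes, 8 of 11 of S phase genes and 2 of 7 of G1 genes, where 37.9% of all genes hold it. A match describes letters only.

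Geminin, the protein that binds and blocks CDT1, is encoded by Gmnn. Gmnn had 1.74 and 2.67 CPM in Control against 2.63 and 3.06 CPM in Dph1 KO, so the genotypes overlapped, and its log2 fold change of 0.37 (SE 0.33) was not called. Within each library, the ratio of Cdt1 to Gmnn in TPM was 3.61 and 2.35 in Control but 0.688 and 0.828 in Dph1 KO. The TPM of Cdt1 thus exceeded that of Gmnn in both Control libraries and lay below it in both Dph1 KO libraries. Cdc6, which works with CDT1 at origins, had 14 to 27 reads per library and a log2 fold change of 0.24 (SE 0.44), with overlap between the genotypes.

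Of the 6 MCM genes, whose products form 1 ring and later the core of the replicative helicase, none was called in the analysis reported. Mcm2 stood at 7.61 and 7.61 CPM in Control against 4.40 and 5.39 CPM in Dph1 KO (-0.64, SE 0.24, adjusted p = 0.0948). Mcm5 stood at 5.82 and 7.003 CPM in Control against 3.35 and 4.80 CPM in Dph1 KO (-0.66, SE 0.28, adjusted p = 0.122). For both genes the unadjusted p was under 0.05 and each Dph1 KO library was below each Control library. Mcm7, the most abundant of the 6, stood at 29.3 and 24.1 CPM in Control against 18.6 and 21.02 CPM in Dph1 KO (-0.43, SE 0.20, adjusted p = 0.157). Mcm3 (-0.53, SE 0.26) also had no overlap, with Dph1 KO lower. Mcm4 and Mcm6 overlapped between the genotypes, at log2 fold changes of 0.08 and 0.05. With a trend on GC content and length removed, Mcm4 was at -0.23 and Mcm6 at -0.12. The other MCM genes then lay nearer 0 than before, Mcm2 at -0.57, Mcm3 at -0.38, Mcm5 at -0.58 and Mcm7 at -0.19. None of the 6 was called there. Whether the MCM genes differed from each other in their change was not tested.

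**Figure D2:**
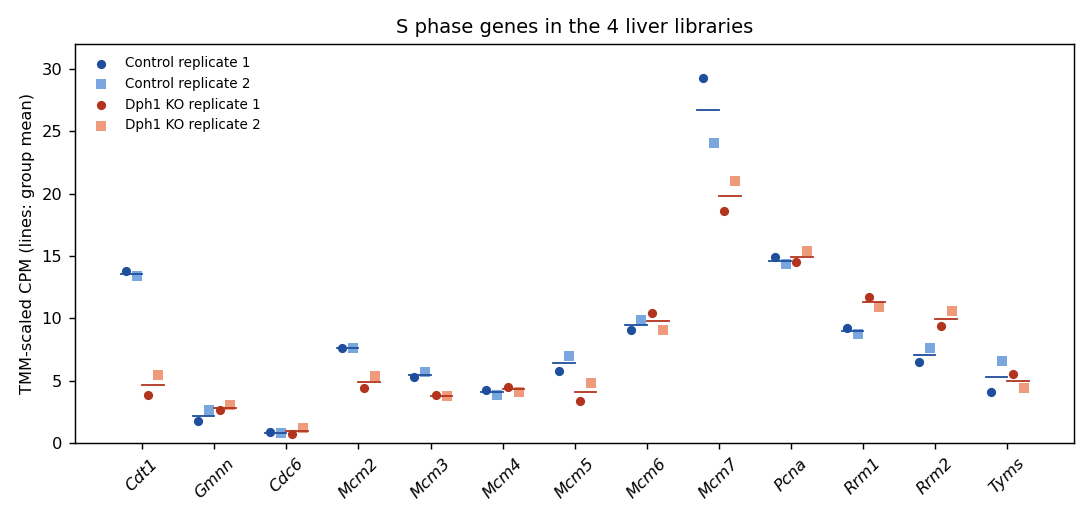
TMM-scaled CPM of the 13 S phase genes in the 4 libraries (points), with the mean of each genotype (lines). Cdt1 has 13.8 and 13.4 CPM in Control against 3.90 and 5.44 CPM in Dph1 KO, while Mcm4, Mcm6 and Pcna overlap between the genotypes.

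Genes of the replication fork and of deoxynucleotide supply gave no call. Pcna had 14.9 and 14.3 CPM in Control against 14.5 and 15.4 CPM in Dph1 KO, with overlap, and its log2 fold change was 0.03 (SE 0.20). Only 53.2% of Pcna reads were uniquely matched, so reads of near-identical copies could enter this value. Rrm2, the regulated subunit of ribonucleotide reductase, which makes deoxynucleotides, had 6.52 and 7.61 CPM in Control against 9.36 and 10.6 CPM in Dph1 KO. Both Dph1 KO libraries were higher, yet the log2 fold change of 0.50 (SE 0.22) missed the threshold (edgeR adjusted p = 0.144). Its partner subunit gene Rrm1 had 9.24 and 8.78 CPM in Control against 11.7 and 10.9 CPM in Dph1 KO (0.32, SE 0.21, adjusted p = 0.287). With a trend on GC content and length removed, Rrm1 was at -0.10 and Rrm2 at 0.32. The thymidylate synthase gene Tyms overlapped, at -0.10 (SE 0.29). Across all 13 S phase genes, 1 fell, 0 rose and 12 were not called, where 12.3% of all tested genes were called. The median log2 fold change of the 13 was 0.03.

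The D cyclins differed in level. Ccnd3 (gene ID 12445) made up 79.0% and 80.8% of D cyclin TPM in Control, 64.2% in Dph1 KO replicate 1 and 76.5% in Dph1 KO replicate 2. It had 68.9 and 85.3 CPM in Control against 33.9 and 53.6 CPM in Dph1 KO. The groups did not overlap, and the log2 fold change was -0.82 (SE 0.25, edgeR adjusted p = 0.0562). Ccnd3 overlaps Bysl on the opposite strand by 359 bases, and Bysl was lower too (-0.83, edgeR adjusted p = 0.0357). The libraries are stranded, but the sources used here do not give whether counting used strand, so reads in the overlap could belong to either gene. Ccnd1, the D cyclin most linked to hepatocyte proliferation, had 26.1 and 29.2 CPM in Control against 27.1 and 23.4 CPM in Dph1 KO, with overlap (-0.13, SE 0.19). Ccnd2 had a log2 fold change of -0.26 (SE 0.24). The estimates of Ccnd1 and Ccnd2 turned positive with library totals as the only scaling and with limma-trend, and neither gene was called in any analysis.

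Cdk4, the kinase that D cyclins activate, had 49.7 and 48.5 CPM in Control against 29.8 and 37.1 CPM in Dph1 KO. The Control libraries were almost equal and both Dph1 KO libraries were lower, at a log2 fold change of -0.55 (SE 0.20, edgeR adjusted p = 0.0851). The related kinase gene Cdk6 had 3.04 and 3.001 CPM in Control against 4.32 and 3.66 CPM in Dph1 KO, so Dph1 KO was the higher here (0.40, SE 0.28), and it was not called. Cyclins E1 and E2 activate CDK2 at the start of S phase. Ccne1 had 32 and 34 reads in Control against 13 and 20 in Dph1 KO, which is 1.74 and 1.89 CPM in Control against 0.551 and 0.914 CPM in Dph1 KO (-1.31, SE 0.41, adjusted p = 0.0576). Ccne2 had 11 and 12 reads in Control against 23 and 17 in Dph1 KO (0.47, SE 0.44). It overlaps Ints8 on the opposite strand by 5622 bases. Ints8 had 135 and 157 reads in Control against 367 and 211 in Dph1 KO (0.65, edgeR adjusted p = 0.111). In both cyclin E genes the libraries of the genotypes did not overlap, with Ccne1 lower and Ccne2 higher in Dph1 KO. With a trend on GC content and length removed, Ccne1 was at -1.08 and Ccne2 at -0.06, so Ccne2 lost its direction. The ratio of Ccne1 to Ccne2 in TPM was 4.78 and 5.08 in Control but 0.987 and 1.84 in Dph1 KO.

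The other G1 genes, Cdk2 (0.13), the phosphatase gene Cdc25a (-0.27) and the transcription factor gene E2f1 (0.08), were not called. None of the 10 G1 genes was called by edgeR in the analysis reported. Of them, 3 were lower and 0 higher with an unadjusted p below 0.05, where 17.9% and 16.3% of all tested genes passed. Among alternatives that kept all 4 libraries, edgeR called Ccnd3 (-0.82, adjusted p = 0.0315) and Ccne1 (-1.31, 0.0428) with no filter on low counts. On exon reads it called both again (-0.82, adjusted p = 0.0412, and -1.36, 0.0463). By DESeq2, 1 of the 10 was called, Ccnd3, at -0.84 (adjusted p = 0.0225), where 15.1% of all genes were called. The median log2 fold change of the 10 was -0.20, and it became 0.07 with library totals as the only scaling, which raised the median of all genes from 0.04 to 0.30.

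Genes of G2 and mitosis gave no call by edgeR in the analysis reported. Of the 10 tested, 1 was lower and 0 higher with an unadjusted p below 0.05, where 17.9% and 16.3% of all tested genes passed. Among the alternative analyses Cdc25b alone of the mitotic members was called, lower, with no filter on low counts (-1.34, adjusted p = 0.0478), on exon reads (-1.41, 0.0448) and without Dph1 KO replicate 2 (-1.43, 0.0406). DESeq2 called none, and gave no adjusted p for 7 of the 10. The one that passed unadjusted was Cdc25b (gene ID 12531), whose phosphatase activates cyclin-dependent kinases at the entry into mitosis. Cdc25b had 31 and 24 reads in Control against 13 and 14 in Dph1 KO, which is 1.68 and 1.33 CPM in Control against 0.551 and 0.640 CPM in Dph1 KO. Both Dph1 KO libraries were lower, at a log2 fold change of -1.34 (SE 0.41, edgeR adjusted p = 0.0554). Cdc20, which activates the anaphase-promoting complex, had 1.90 and 1.89 CPM in Control against 1.31 and 1.05 CPM in Dph1 KO (-0.68, SE 0.36, adjusted p = 0.203). The mitotic kinase gene Aurka had 1.63 and 1.000 CPM in Control against 1.44 and 2.01 CPM in Dph1 KO, with overlap (0.39, SE 0.40).

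The log2 fold changes of the tested mitotic genes other than Cdc25b and Cdc20 were all above 0, from 0.05 to 1.08, and none was called. Of these, Mki67, Bub1b, Foxm1, Cdk1 and Ccna2 passed the filter on low counts only with the reads of the Dph1 KO libraries. Genes as scarce that were not higher in Dph1 KO were more likely to be left out. The shared direction is therefore partly set by the filter. With no filter, 12 of all 16 mitotic genes were above 0 and 4 below. Leaving out Control replicate 1 turned Ccna2 and Top2a negative, and Top2a was also negative with a trend on GC content and length removed and when Dph1 KO replicate 2 was left out. Mki67, the gene of the Ki-67 antigen that marks cycling cells, had 9 and 3 reads in Control against 17 and 15 in Dph1 KO (1.08, SE 0.56, adjusted p = 0.197), and its log2 fold change was 2.04 without Control replicate 1 and 0.52 without Control replicate 2. Bub1b, a spindle checkpoint gene, had 8 and 8 reads in Control against 20 and 15 in Dph1 KO (0.80, SE 0.47). Foxm1, the transcription factor that drives many mitotic genes, had 6 and 11 reads in Control against 17 and 19 in Dph1 KO (0.75, SE 0.49). In these 3 genes each Dph1 KO library had more reads than each Control library, but all counts were at most 20. Birc5, which encodes the survivin protein of the chromosomal passenger complex, had 13 and 14 reads in Control against 21 and 19 in Dph1 KO (0.24, SE 0.42). Cdk1 had 6 and 7 reads in Control against 11 and 11 in Dph1 KO (0.43, SE 0.52). Ccna2, the cyclin A gene, had 6 and 10 reads in Control against 14 and 11 in Dph1 KO (0.31, SE 0.52). It overlaps Exosc9 on the opposite strand by 863 bases. Exosc9 had 155 and 154 reads in Control against 311 and 271 in Dph1 KO (0.59, edgeR adjusted p = 0.0792). Reads in the overlap could belong to either gene. For Top2a, whose enzyme untangles DNA, Control replicate 1 had 4 reads and Control replicate 2 had 13, a wider gap than between the Dph1 KO libraries at 10 and 12.

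Of the mitotic genes too scarce to test, the cyclin B genes Ccnb1 and Ccnb2 had 2 to 4 and 5 to 11 reads per library. The kinase genes Aurkb and Plk1 had 2 to 15 and 6 to 10, and Cdc25c had 1 or 2. Summed over all 16 genes, CPM were 9.08 and 9.06 in Control against 9.27 and 10.1 in Dph1 KO, or 1.07 times the Control mean. The median log2 fold change of the 10 tested was 0.35. It ran from -0.68 to 0.60 over the 15 alternatives and was above 0 in 14 of them. The lowest came with a mean of at least 1 CPM, where only 3 mitotic genes were tested. With no filter on low counts, all 16 were tested and the median was 0.27. The alternatives reuse the same libraries and mostly the same genes, some of which passed the filter only with Dph1 KO reads. They are therefore not independent support for a direction.

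Of the 4 brakes, 1 rose, 0 fell and 3 were not called, where 12.3% of all tested genes were called. The one that rose was Rb1 (gene ID 19645, GRCm38 chr14:73195502-73325791, minus strand), which encodes the retinoblastoma protein that binds E2F factors and holds cells in G1. It had 7.77 and 9.34 CPM in Control against 19.2 and 12.3 CPM in Dph1 KO. Both Dph1 KO libraries were above both Control libraries, and Dph1 KO replicate 1 was the highest. The log2 fold change was 0.88 (SE 0.25, edgeR adjusted p = 0.0468), just inside the threshold. Reads across its exon junctions numbered 58 and 70 in Control and more, 174 and 104, in Dph1 KO. Rb1 overlaps Lpar6 on the opposite strand, which had 63 to 148 reads per library and was not called (edgeR adjusted p = 0.690). The call of Rb1 was lost without Control replicate 1 (0.76), Control replicate 2 (1.02) or Dph1 KO replicate 1 (0.55). With all 4 libraries kept, it was lost by edgeR with a mean of at least 1 CPM (adjusted p = 0.0526) and with the GC trend removed (0.255). It was also lost by limma-voom (adjusted p = 0.0612) and limma-trend (0.205).

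Wee1 (gene ID 22390), the gene of the kinase that keeps CDK1 inactive, had 14.1 and 17.3 CPM in Control against 10.6 and 6.99 CPM in Dph1 KO. Both Dph1 KO libraries were lower, replicate 2 the most. The log2 fold change of -0.84 (SE 0.25) lay just outside the threshold (edgeR adjusted p = 0.0510). DESeq2 called Wee1 lower (-0.87, adjusted p = 0.0319). The inhibitor gene Cdkn1b, which encodes p27, had 8.75 and 7.56 CPM in Control against 10.2 and 8.14 CPM in Dph1 KO, with overlap (0.17, SE 0.23). Its relative Cdkn1c overlapped too (0.42, SE 0.40).

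**Figure D3:**
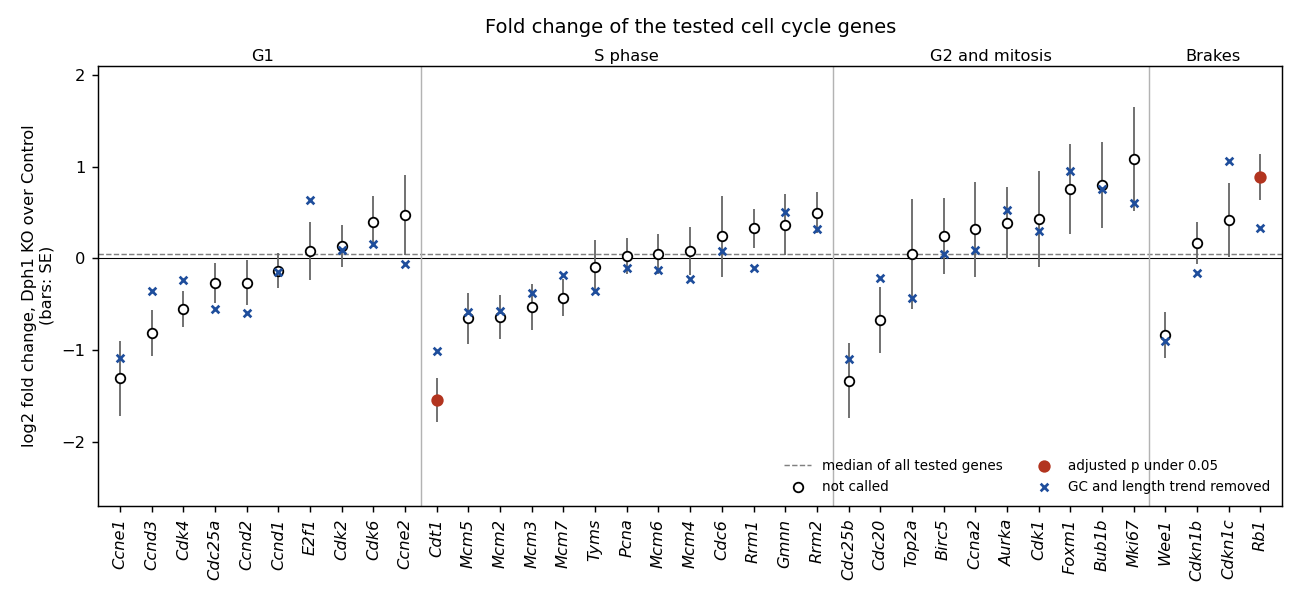
Log2 fold change (Dph1 KO over Control) of the 37 tested genes with its SE, by role, and the same values with a trend on GC content and length removed. The 2 called genes are Cdt1 at -1.54 and Rb1 at 0.88, drawn filled, and the dashed line is the median of all tested genes at 0.04.

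Fold changes in these libraries moved with the GC content of transcripts, and the part of GC content in the results was not tested beyond the values given here. Over 12504 protein-coding genes the Spearman correlation across genes between GC content and log2 fold change was -0.62, and over the 37 tested members it was -0.46. Genes are not independent replicates, and all share the same 4 libraries. Cdt1, at 57.8% GC, lies in the class of highest GC, whose median log2 fold change was -0.56. Rb1, at 41.2% GC, lies in the class of lowest GC, whose median was 0.48. With a smooth trend on GC content and length removed from each library, 9.49% of all tested genes were called (4.41% higher and 5.08% lower), and so were 2 of the 37, both lower. Cdt1 stayed called (-1.01, adjusted p = 0.0111), Wee1 became called (-0.90, adjusted p = 0.0327) and Rb1 was not called (0.33, adjusted p = 0.255). Ccnd3 moved to -0.36, Cdk4 to -0.23, Ccne1 to -1.08 and Cdc25b to -1.10, none of them called. With that trend removed, 7 of the 37 genes had the opposite sign, and the median of the 37 was -0.12.

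**Figure D4:**
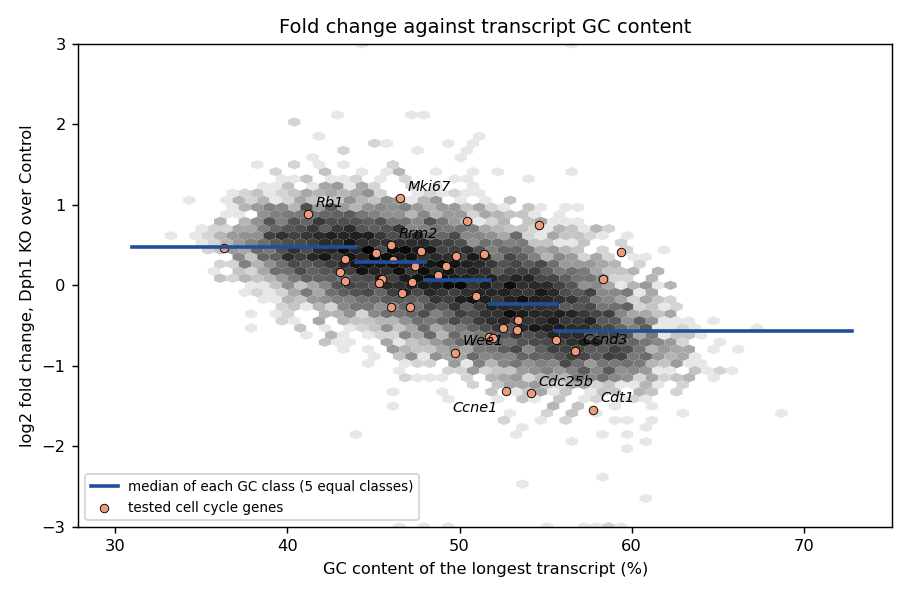
Log2 fold change (Dph1 KO over Control) against transcript GC content (percent) for 12504 tested protein-coding genes (grey, darker for more genes) and the 37 tested cell cycle genes (points), with the median of each of 5 GC classes as a line. The class medians go from 0.48 to -0.56, and Cdt1 lies below the line of its class.

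The count of members called varied with the analysis, and so did the share over all genes, given in brackets. With DESeq2, 1 of the 37 was higher and 3 were lower, where 15.1% of all genes were called (4.77% higher and 10.3% lower). Members called numbered 3 with RLE factors (all genes 12.8%), 3 with library totals only (25.7%) and 2 with upper quartile factors (15.3%). They numbered 6 of 43 with no filter on low counts (11%), 1 of 28 with a mean of at least 1 CPM (11%) and 6 of 34 on exon reads (15.4%). On uniquely matched reads 2 were called (12.3%), with limma-voom 1 (10.8%) and with limma-trend 0 (0.0226%). The largest change came from leaving out Dph1 KO replicate 2, with 10 of 37 members and 43.2% of all genes called. Leaving out Dph1 KO replicate 1 gave 2 (10.7%), Control replicate 1 gave 1 (5.62%) and Control replicate 2 gave 1 (3.92%). All 10 members with an unadjusted p under 0.05 kept their direction in each of the 15 alternatives that tested them. These 10 were picked by p-value in the same libraries, and in each of them the genotypes did not overlap. A kept direction was thus nearly given in advance and is no independent support.

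**Figure D5:**
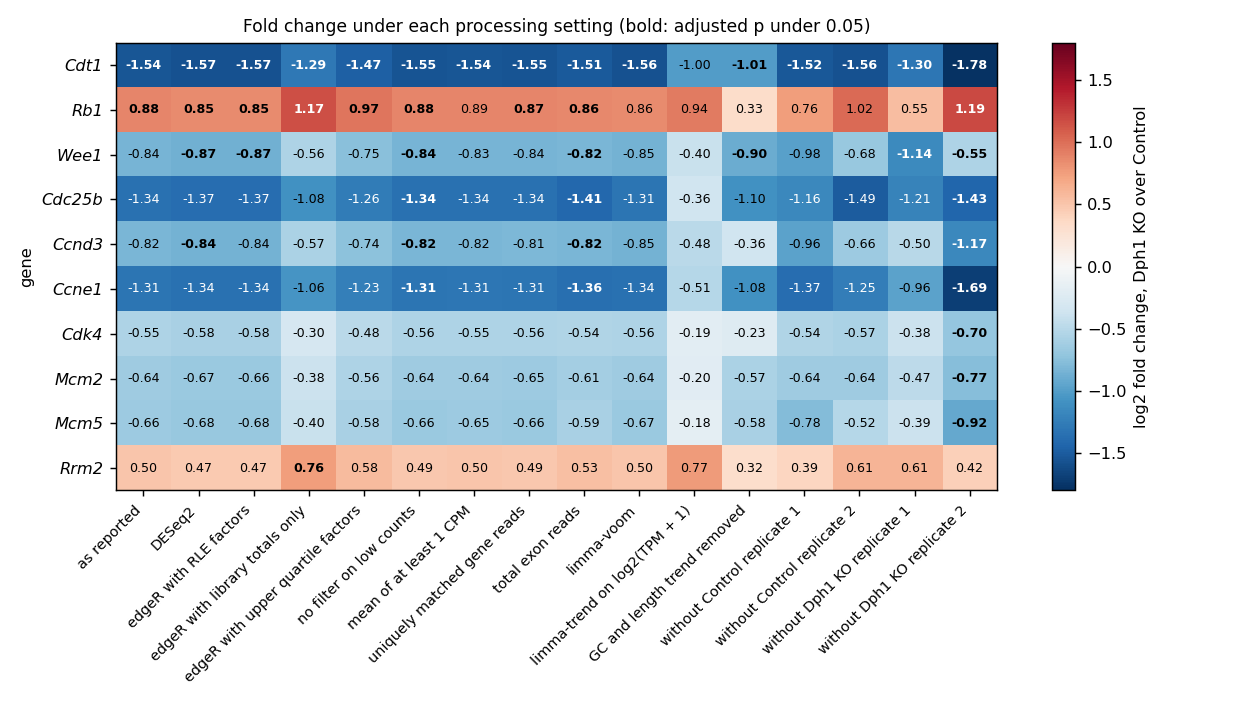
Log2 fold change (Dph1 KO over Control, colour and number) of the 10 members with an unadjusted p under 0.05, in the analysis reported and in the alternatives, with bold numbers where the adjusted p is under 0.05. Each gene keeps its direction in every column that tests it, Cdt1 is bold in all columns but limma-trend, and Rb1 is not bold in 7 columns. The genes were picked by p-value in these same libraries, so a kept direction was nearly given in advance.

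Other genes of the same machinery were counted from lists drawn up beside the 43. Of 41 other replication genes 36 were tested, with 2 rising, 1 falling and 33 not called, where 12.3% of all tested genes were called, and a median log2 fold change of 0.05. Rfc1, the large subunit of the clamp loader, rose from 10.8 and 12.3 CPM to 25.3 and 20.0 CPM (0.98, SE 0.21, adjusted p = 0.0218). Dbf4, the activator of the kinase CDC7 that fires licensed origins, rose from 0.924 and 0.889 CPM to 2.16 and 2.33 CPM (1.30, SE 0.36, adjusted p = 0.0432). Pold2, a subunit of DNA polymerase delta, fell from 30.1 and 26.7 CPM to 11.4 and 15.7 CPM (-1.07, SE 0.22, adjusted p = 0.0182). In all 3 the libraries of the genotypes did not overlap. With the GC trend removed Rfc1 was again called (0.65, adjusted p = 0.0321), while Dbf4 (0.89) and Pold2 (-0.43) were not. Without Control replicate 1, 0 of the 36 were called, where 5.62% of all genes were, and without Dph1 KO replicate 2, 12 were, where 43.2% of all genes were.

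Of 35 other genes of mitosis and cytokinesis, 19 had too few reads to test and 16 were tested. None was called by edgeR or DESeq2, with 4 higher and 0 lower by edgeR's unadjusted p under 0.05, where 16.3% and 17.9% of all tested genes passed, and a median log2 fold change of 0.27. Of the 16, 4 were called with library totals only (25.7% of all genes), 2 with upper quartile factors (15.3%) and 4 without Dph1 KO replicate 2 (43.2%). The most abundant was Bub3, a checkpoint gene, at 55.1 and 57.7 CPM in Control against 40.6 and 48.1 CPM in Dph1 KO (-0.35, SE 0.20). Next was Cks2, which encodes a small subunit of cyclin-dependent kinases, at 13.0 and 12.2 CPM in Control against 15.2 and 13.3 CPM in Dph1 KO (0.17, SE 0.20). With 31.8% of its reads uniquely matched, the value of Cks2 is uncertain.

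Of 33 other control genes, from E2F factors to DREAM subunits, 31 were tested, 1 rose and 3 fell, where 12.3% of all tested genes were called. Rbl2, which encodes p130, the retinoblastoma relative in DREAM, rose from 16.6 and 16.5 CPM to 35.4 and 30.3 CPM (0.99, SE 0.19, adjusted p = 0.0161). It was again called with the GC trend removed (0.68, adjusted p = 0.0186). Lin37, a DREAM subunit, fell from 23.3 and 35.5 CPM to 12.2 and 14.4 CPM (-1.14, SE 0.24, adjusted p = 0.0193). Fzr1, which activates the anaphase-promoting complex in G1, fell from 46.0 and 57.5 CPM to 23.5 and 31.2 CPM (-0.92, SE 0.22, adjusted p = 0.0285). Cks1b, a small subunit of cyclin-dependent kinases, fell from 6.09 and 6.28 CPM to 2.75 and 3.75 CPM (-0.93, SE 0.27, adjusted p = 0.0499). In all 4 the genotypes did not overlap. Lin37 (-0.56), Fzr1 (-0.27) and Cks1b (-0.79) were not called with the GC trend removed, and none of the 4 was called without Control replicate 2. The most abundant of this list was Cdkn1a, the p53 target that encodes the inhibitor p21, named after its values were seen. It stood at a mean of 861 TPM, above each of the 43 members, and was not called (-0.29, SE 0.27, adjusted p = 0.460).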

How the data were processed

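RNA of mouse liver was sequenced in 4 libraries with a stranded mRNA kit, per the labels' protocols. The deposited tables hold, per the file headers, raw counts of reads for each gene (total and uniquely matched, over genes, exons, junctions and introns) and RPKM and TPM values. RPKM was not used, nor were the deposited ratios, which are fractions of a gene's reads. The submitters' processing notes name the build GRCm38 (mm10). The aligner, the counter and whether strand was used: not given in the sources used here. Depth was 19474596 to 21137358 gene reads per library, of which 89.3% to 90.2% were uniquely matched.

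Total gene counts of all 4 libraries were tested with edgeR 4.0.16 (filterByExpr, TMM, glmQLFit and glmQLFTest, genotype as the only term) in R 4.3.3, with Benjamini-Hochberg adjustment over 13303 genes and a threshold of 0.05. Deposited TPM served to compare levels between genes. Alternatives used DESeq2 1.42.0, limma 3.58.1 (voom, and trend on log2(TPM + 1)), other scalings, filters and read classes, a GC and length trend from mgcv 1.9.3, and each library left out. The cell cycle members and the other gene lists were chosen with earlier results of these data known. Values in every library are given for members with an adjusted or unadjusted p under 0.05 and for the 2 most abundant of each group. From the other lists the called genes are named, up to 4, or the 2 most abundant where none was called.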

Additional observations from a re-analysis of the deposited data

How the results depend on the processing

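With 2 libraries per genotype, a lone library was assumed to vary like the other group, and each call rests on few values. No paired analysis was possible because the labels carry no replicate numbers shared between the genotypes. No recomputed result that was called turned to the opposite sign. The 1640 genes called became 3423 with library totals only, 3 with limma-trend on log2(TPM + 1), and 522 to 5747 with 1 library left out (lowest without Control replicate 2, highest without Dph1 KO replicate 2).

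The 1 member that rose became 2 with library totals only, 0 with a mean of at least 1 CPM, limma-voom, limma-trend or the GC trend removed, and 0 to 1 with a library left out. The 1 that fell became 3 with DESeq2, 2 with RLE factors, 5 with no filter or on exon reads, 0 with limma-trend, 2 with the GC trend removed, and 1 to 9 with a library left out. The members' median log2 fold change of 0.08 became 0.049 with DESeq2 and with RLE factors, 0.33 with library totals only, 0.15 with upper quartile factors, -0.11 with a mean of at least 1 CPM, where fewer members were tested, 0.0602 on exon reads, 0.18 with limma-trend and -0.12 with the GC trend removed. It was 0.0595 to 0.0954 with a library left out.

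Of the other replication genes, 3 called became 9 with library totals only, 6 with upper quartile factors, 5 with no filter or on exon reads, 0 with limma-trend, 1 with the GC trend removed, and 0 to 12 with a library left out. Of the other mitosis genes, 0 called became 4, 2, 1 and 1 with library totals only, upper quartile factors, no filter and exon reads, and 0 to 4 with a library left out. Of the other control genes, 4 called became 9 with library totals only, 7 with no filter or on exon reads, 0 with limma-trend, 2 with the GC trend removed, and 0 to 10 with a library left out. Beyond the values given, the cause was not tested.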
